A study of Mus musculus with 20 samples.

Results

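Zbtb16, Eya2, Snai2, Maf, Mafa, Shox2, Eya1 and Six4 are genes of transcription factors or their coactivators, known from sensory neuron subtypes or singled out for a difference between spinal levels. They were 8 of the 37620 genes listed for mouse dorsal root ganglia (DRG), which flank the spinal cord and hold sensory neurons with their glia. Their symbols were matched to the gene identifiers of the expression table. The members were selected partly on the measured sacral minus lumbar differences of these same libraries, so those differences are given as a description, with no p-value, and the count of members past the threshold of the fit over all genes is printed only beside the share of all genes. The study asked which transcripts mark the ganglia that hold pelvic visceral sensory neurons, and whether level differences are present before birth. Whole ganglia of C57Bl/6 (C57Bl6 in the labels) embryos at E18.5, shortly before birth, were sequenced, with no treatment given in the labels. Each of 10 embryos, 5 male (M1, M3, M5, M7, M8) and 5 female (F3, F7, F8, F9, F10), gave 1 library from lumbar ganglia L4-L5 and 1 from L6-S1, called sacral. Level and sex thus gave 4 groups of 5 libraries.

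The members belong to several regulatory families. Six4 and its relatives bind DNA through a homeodomain, and Eya proteins join them as coactivators that also carry phosphatase activity. The pairing acts in cranial placodes, sensory ganglia, muscle and kidney. Maf and Mafa are basic leucine zipper factors known from low-threshold mechanoreceptors, the neurons of touch, and Shox2 is a homeodomain factor known from mechanoreceptors that carry the receptor TrkB. Snai2, also called Slug, is a zinc finger repressor of neural crest and mesenchyme, and Zbtb16, also called PLZF, is a zinc finger repressor with a BTB domain, known from progenitor cells and from axial and limb patterning.

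Libraries held 19403023 to 39257771 reads, recovered from the steps of the deposited values, and 18.12 to 61.44% of them came from mitochondrial ribosomal RNA (rRNA). All 10 sensory neuron markers and all 10 markers of Schwann cells and satellite glia, which define the tissue, passed the filter of a mean of 1 RPKM (reads scaled to gene length and library size) in at least 1 group. None of 7 spinal cord markers passed it. Mnx1 and Nkx2-2 were each at 0 reads in 19 of 20 libraries, whereas Gad1 was at 0 reads in 1 and had up to 56. The median of their summed level was 0.148 RPKM in lumbar male and 0.249 in sacral male libraries. In lumbar and sacral female libraries it was 0.201 and 0.583 RPKM. Markers of tissue around the ganglia were present: the summed level of 12 fibroblast and meninges markers ran from 292 to 441 RPKM in lumbar male, 418 to 535 in sacral male, 280 to 614 in lumbar female and 386 to 806 in sacral female libraries. The lumbar library of donor F8 had the highest sum of its group for that list and also for 12 skeletal muscle markers, at 438 RPKM, and it was the deepest library. Donor F8 is therefore named beside several of the results it moves. The ganglia were measured whole, so fewer cells of a type and less RNA per cell cannot be told apart.

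Of the 8 members, 7 passed the filter, and Mafa did not. Zbtb16 passed only through the sacral groups, the groups where it was high. On the log2 RPKM scale, which corrects for gene length, the mean level over the 20 libraries was highest for Maf (3.01 ± 0.22, SD, n = 20), followed by Snai2 (2.78 ± 0.70), Eya2 (2.26 ± 0.73), Six4 (1.71 ± 0.32), Shox2 (1.62 ± 0.53), Eya1 (1.17 ± 0.65), Zbtb16 (0.26 ± 0.53) and Mafa. Maf thus stood above 71.9% of the tested genes and Zbtb16 above 11.7%. For the 5 neighbouring pairs from Maf down to Eya1, the mean gap was smaller than its SD over the libraries. Maf exceeded Snai2 in 13 of 20 libraries, Snai2 exceeded Eya2 in 14, Eya2 exceeded Six4 in 12, Six4 exceeded Shox2 in 10 and Shox2 exceeded Eya1 in 13. Eya1 exceeded Zbtb16 in 19 of 20 libraries, and Zbtb16 exceeded Mafa in 20 of 20. The values of each library are given below in the donor order M1, M3, M5, M7, M8 for males and F3, F7, F8, F9, F10 for females.

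**Figure D1:**
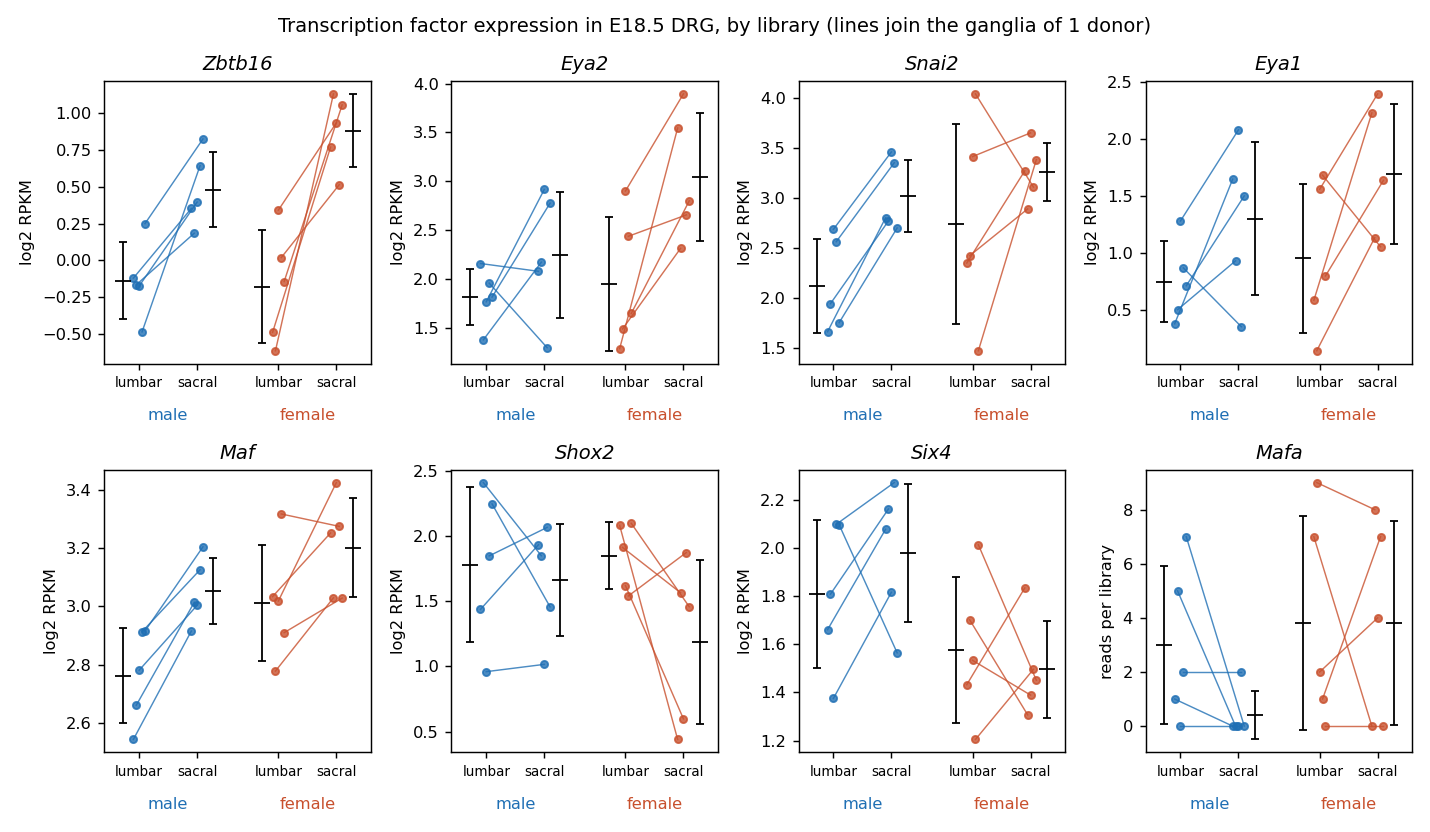
Expression of the 8 genes in each library, as log2 RPKM (as reads per library for Mafa), with lumbar and sacral ganglia of the same donor joined by a line. Blue points are the 5 male and orange points the 5 female donors, and black bars are the mean and SD of each group; the Zbtb16 line goes up in each of the 10 donors, whereas the Six4 line goes up in 6.

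Zbtb16 (ENSMUSG00000066687, chr9:48462416-48644050, mm9, minus strand, protein coding) was higher in the sacral than in the lumbar ganglia of every donor. In lumbar DRG its log2 RPKM was -0.12, -0.17, -0.18, -0.49 and 0.25 in males and -0.62, 0.34, 0.02, -0.15 and -0.49 in females. In sacral DRG it was 0.35, 0.18, 0.40, 0.64 and 0.83 in males and 1.13, 0.94, 0.51, 1.06 and 0.77 in females. Each of the 10 donors thus went the same way. The levels overlapped in part, since the highest lumbar library (F7, 0.34) exceeded the lowest sacral library (M3, 0.18), but within females they did not overlap. The sacral minus lumbar difference was 0.84 ± 0.46 on the log2 scale (SD over 10 donors, a fold of 1.79), from 0.35 in M3 to 1.75 in F3. A higher sacral value in 10 of 10 donors was found for 0.895% of the 14529 genes tested. Since Zbtb16 was chosen on this contrast, nothing is read from its place among them or from the lack of overlap within females. The values rested on 74 to 435 reads per library, with 1398 reads over the lumbar and 2338 over the sacral libraries.

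The Eya coactivators showed larger spreads between donors. Eya2 (ENSMUSG00000017897, chr2:165480798-165597227, mm9, plus strand) had lumbar log2 RPKM values of 2.16, 1.37, 1.76, 1.96 and 1.81 in males and 1.49, 2.90, 2.44, 1.64 and 1.28 in females. Its sacral values were 2.08, 2.17, 2.91, 1.29 and 2.77 in males and 2.31, 3.89, 2.65, 2.80 and 3.54 in females. The sacral library was the higher in 5 of 5 females and in 3 of 5 males, with M1 and M7 lower. The mean difference was 0.76 ± 0.79 (SD, n = 10, log2), from -0.66 in M7 to 2.26 in F10, and it rested on 152 to 936 reads per library.

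Eya1 (ENSMUSG00000025932, chr1:14159035-14300281, mm9, minus strand) had the same orientation with as wide a spread. Its lumbar log2 RPKM values were 0.37, 0.50, 1.28, 0.87 and 0.71 in males and 0.14, 1.56, 1.68, 0.80 and 0.58 in females. Its sacral values were 1.65, 0.93, 2.08, 0.35 and 1.50 in males and 1.13, 2.40, 1.05, 1.64 and 2.23 in females. The groups overlapped widely, and M7 and F8 were lower in sacral DRG. The mean difference was 0.65 ± 0.72 (SD, n = 10, log2), with 8 of 10 donors higher in sacral DRG, and 153 to 582 reads per library stood behind it.

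Six4 (ENSMUSG00000034460, chr12:74201246-74214401, mm9, minus strand), the DNA-binding partner among the members, had no steady level pattern. Lumbar log2 RPKM was 1.66, 1.81, 1.37, 2.10 and 2.10 in males and 1.70, 1.53, 1.20, 2.01 and 1.43 in females. Sacral log2 RPKM was 2.08, 2.16, 1.82, 2.27 and 1.56 in males and 1.31, 1.39, 1.50, 1.45 and 1.83 in females. The difference was 0.04 ± 0.41 (SD, n = 10), higher in sacral DRG in 4 of 5 males and 2 of 5 females. The mean difference was 0.17 in males and -0.08 in females, and the fit without F8 or without F10 took the pooled value to just below 0 (-0.0022 and -0.016).

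A short stretch of the Six4 start region is shown because the members include Eya coactivators and a factor they join, and it holds the letters of a recognition core of that factor's own family. Promoter windows of 300 bases (250 before and 50 after a transcript start, RefSeq, GRCm38.p6) were matched for 2 of the 8 members, Shox2 with 1 entry and Six4 with 2. Searched on both strands were TCAGGTT, the core of the MEF3 site bound by Six4 and its relatives, CAGGTG, an E-box bound by Snail factors, and TGCTGAC, the core of the Maf recognition element. Only TCAGGTT was found, once, in reverse orientation, in 1 of the 2 Six4 windows, 97 bases before the start (chr12:73113326-73113352, GRCm38.p6, minus strand, with the matching letters in capitals).
Six4: gcctgggggaAACCTGAtcggccagat
The same letters were held by 4.07% of the 32851 promoter windows, CAGGTG by 20.2% and TGCTGAC by 4.67%. The match is a description of letters and no measurement of binding.

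Snai2 (ENSMUSG00000022676, chr16:14705945-14709488, mm9, plus strand) was the member whose highest value came from the lumbar library of F8. Lumbar log2 RPKM was 1.66, 1.94, 2.68, 2.56 and 1.75 in males and 2.42, 3.41, 4.04, 1.47 and 2.35 in females. Sacral log2 RPKM was 2.80, 2.77, 3.46, 3.35 and 2.70 in males and 2.89, 3.65, 3.11, 3.38 and 3.27 in females. Among males the levels did not overlap, with the highest lumbar value (M5, 2.68) just below the lowest sacral value (M8, 2.70), and the difference was 0.89 ± 0.15 (SD, n = 5, log2). Among females the levels overlapped. Snai2 is among members chosen partly on this contrast, so nothing is read from the overlap in either sex. The female difference was 0.52 ± 1.03 (SD, n = 5), since the lumbar library of F8 was the highest of all 20 with 1381 reads. The difference in F8 was -0.93, and the other 9 donors were higher in sacral DRG. Over the 10 donors the difference was 0.71 ± 0.72 (SD, log2).

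Maf (ENSMUSG00000055435, chr8:118206842-118231694, mm9, minus strand) was the most highly expressed member and differed least between libraries. Its lumbar log2 RPKM was 2.54, 2.66, 2.78, 2.91 and 2.92 in males and 2.78, 3.02, 3.32, 2.91 and 3.03 in females. Its sacral log2 RPKM was 2.92, 3.01, 3.004, 3.13 and 3.20 in males and 3.03, 3.43, 3.27, 3.03 and 3.25 in females. The sacral library was the higher in 9 of 10 donors, with F8 the exception at -0.04. The difference was small and even, 0.24 ± 0.13 (SD, n = 10, log2, a fold of 1.18), on 928 to 3405 reads per library. Maf shares 440 exonic bases with the antisense transcript Gm15655, which had 55 to 254 reads. Whether the counting used strand is not stated, so reads of the pair cannot be told apart there.

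Mafa (ENSMUSG00000047591, chr15:75577273-75578352, mm9, minus strand) was near the limit of detection. Lumbar libraries had 1, 5, 0, 2 and 7 reads in males and 9, 2, 1, 0 and 7 in females. Sacral libraries had 0, 0, 0, 2 and 0 reads in males and 8, 4, 7, 0 and 0 in females. A library at 0 reads allows up to 3 reads for counting error only, and 8 of 20 libraries were at 0. The sums were 34 reads over the lumbar and 21 over the sacral libraries, so no fold is given, and a level difference was not detectable at this depth.

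Shox2 (ENSMUSG00000027833, chr3:66775649-66785693, mm9, minus strand) was the only tested member with a lower mean in sacral DRG. Lumbar log2 RPKM was 1.44, 2.41, 0.96, 1.85 and 2.24 in males and 1.91, 1.62, 1.54, 2.10 and 2.08 in females. Sacral log2 RPKM was 1.93, 1.85, 1.01, 2.06 and 1.46 in males and 1.56, 0.60, 1.87, 1.46 and 0.44 in females. The difference was -0.39 ± 0.67 (SD, n = 10), from -1.64 in F10 to 0.50 in M1. It was lower in 6 donors and higher in 4 (M1, M5, M7 and F8), so the mean was smaller than the spread between donors. Shox2 shares 153 exonic bases with the antisense gene Rsrc1, and a second identifier, ENSMUSG00000093425, carried almost the same values (offset 0.17 to 0.21 on the log2 scale in each of the 20 libraries). Its level is therefore uncertain, and its reads could not be recovered.

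**Figure D2:**
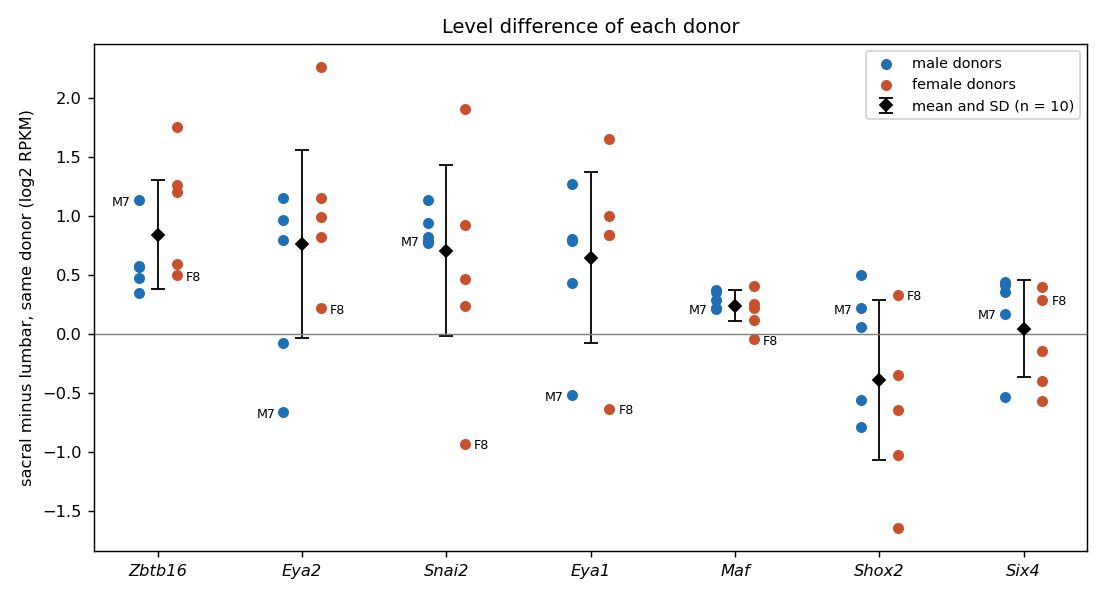
Sacral minus lumbar log2 RPKM within each donor for the 7 members that passed the filter, with blue points for male and orange points for female donors and black diamonds with bars for the mean and SD over 10 donors. Points above 0 are higher in sacral DRG; Zbtb16 lies above 0 in 10 of 10 donors and Maf in 9, while F8 lies below 0 for Snai2 and Eya1 and above 0 for Shox2.

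Fitted with limma over all genes, with donor as a block, the level comparison called 4 of the 7 tested members, Zbtb16, Eya2, Snai2 and Maf, each higher in sacral DRG. The same threshold of an adjusted p of 0.05 called 6.73% of the 14529 genes in either direction and 2.7% higher in sacral DRG. The members were selected on this contrast, and Zbtb16 entered the fit only through the sacral groups, so nothing is read from their count against that share.

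Sex was not used to choose the members and was therefore tested. The numbers that end the library labels run on within each sex, with a gap between the sexes. The label of lumbar M3 has an extra digit. What the numbers stand for is not given, so a sex difference cannot be told apart from a difference between these runs. Between female and male lumbar DRG, no member passed (limma, Benjamini-Hochberg adjustment over all genes), against 0.33% of all genes. The smallest adjusted p was that of Maf at 0.601, with a difference of 0.25 (95% interval -0.0004 to 0.50, female minus male, log2). Without F8 the Maf difference was 0.17. Snai2 had the largest lumbar estimate, 0.62 (95% interval -0.12 to 1.35, limma adjusted p = 0.681), with F8 its highest value, and it was 0.29 without F8 and 0.93 without F9. For Zbtb16 the lumbar estimate was -0.04 with an interval from -0.53 to 0.45. No member had an unadjusted p below 0.05 in lumbar DRG, against 8.28% of all genes tested.

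Between female and male sacral DRG no member passed the test either, against 1.01% of all genes. Six4 had 1.56 to 2.27 log2 RPKM in males and 1.31 to 1.83 in females, a difference of -0.48 (95% interval -0.88 to -0.08, limma, unadjusted p = 0.0207, adjusted p = 0.241). Eya2 went the other way, at 0.79 (95% interval 0.06 to 1.53, limma, unadjusted p = 0.0359, adjusted p = 0.29), and the female and male values overlapped for both genes. In sacral DRG an unadjusted p below 0.05 was found for 15.5% of all genes tested (limma). Nothing is therefore read from these 2 of 7 tested members. Zbtb16 was 0.40 (-0.09 to 0.89), Eya1 0.39 (-0.36 to 1.13), Snai2 0.24 (-0.49 to 0.98), Maf 0.15 (-0.10 to 0.40) and Shox2 -0.48 (-1.11 to 0.16), each with an interval that included 0. These misses do not show that the sexes were alike, since the intervals leave room for differences of up to 1.53 on the log2 scale. For Mafa, sacral males summed to 2 reads and sacral females to 19 (exact permutation test of the log2 values, two-sided, p = 0.0873, where the smallest possible is 0.00794), and lumbar males and females to 15 and 19 reads (exact permutation test, p = 0.944).

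The level difference itself was compared between the sexes as an interaction. No member and none of the 14529 genes passed (0.0%, limma), and 470 genes had an unadjusted p below 0.05, none of them a member. Zbtb16 had a level difference of 1.06 ± 0.52 (SD, n = 5, log2) in females and 0.62 ± 0.30 in males, and the difference between the sexes was 0.44 (95% interval -0.12 to 1.003, limma adjusted p = 0.995). Eya2 had 1.09 ± 0.74 in females and 0.43 ± 0.77 in males, an interaction of 0.66 (95% interval -0.19 to 1.50, limma adjusted p = 0.995). Shox2 had -0.66 ± 0.74 in females and -0.12 ± 0.54 in males, an interaction of -0.55 (95% interval -1.28 to 0.18, limma adjusted p = 0.995). The donor differences of the sexes overlapped for each of the 3 genes. Leaving out a donor moved these estimates by over 1.5 times: Zbtb16 was at 0.27 without F3, Eya2 at 0.36 without F10 and 0.38 without M7, and Shox2 at -0.30 without F10. Without F8 the estimates of the 3 genes lay further from 0, at 0.58 for Zbtb16, 0.88 for Eya2 and -0.80 for Shox2. For Mafa the exact permutation test of the donor differences gave p = 0.19.

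**Figure D3:**
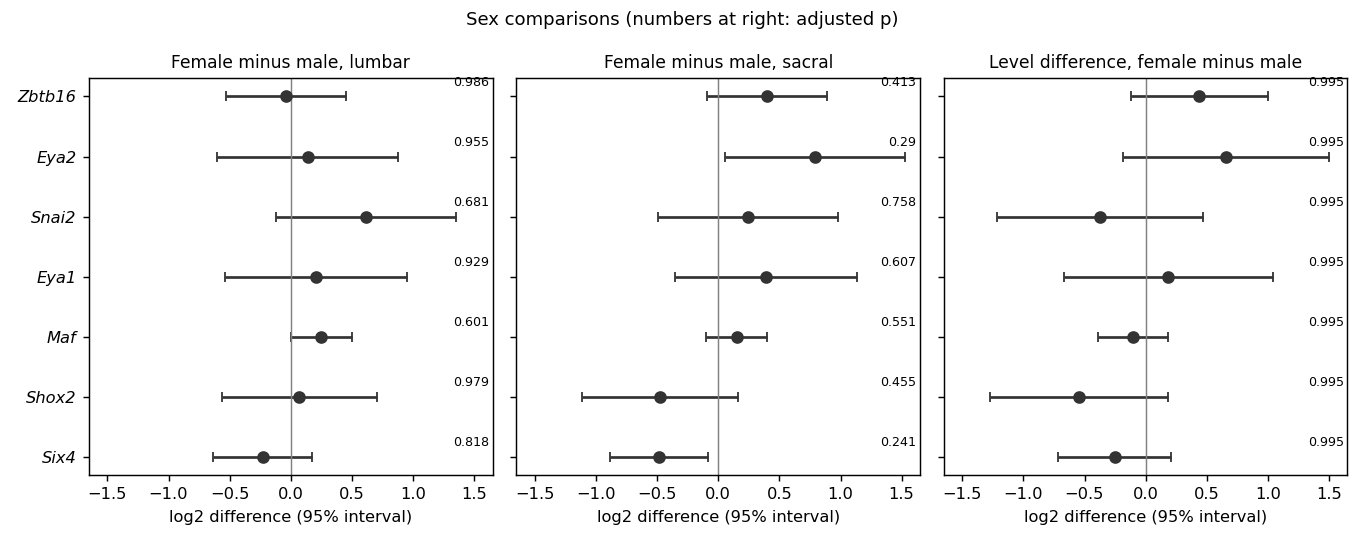
Fitted log2 differences with their 95% intervals for the 7 tested members: female minus male in lumbar DRG (left), in sacral DRG (middle) and the level difference of females minus that of males (right). Numbers at the right of each panel are limma adjusted p-values, and none is at or below 0.05. Of the 21 intervals those of Eya2 and Six4 in sacral DRG exclude 0. In that comparison 15.5% of all genes tested had an unadjusted p below 0.05.

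Relatives of the members were examined through lists of network partners and families, and these genes, unlike the members, were tested for level. Of all genes tested for level, 6.73% passed in either direction and 2.7% were higher in sacral DRG. Of 12 other genes of the families of Six4, Eya, Dach and Pax, 6 were tested and none passed the threshold. Eya4, a coactivator of the same family, was nearest with a difference of 0.99 (SE 0.31, limma adjusted p = 0.0537) and was higher in sacral DRG in 9 of 10 donors. Eya3 was at -0.07 (SE 0.09, limma adjusted p = 0.646).

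The small Maf genes Maff and Mafg, relatives of Maf without an activation domain, did not pass the level test, at -0.13 (SE 0.14, limma adjusted p = 0.572) and -0.01 (SE 0.08, limma adjusted p = 0.961).

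Among 11 factors of the Snail family and of mesenchyme, 9 were tested, 2 rose and 1 fell in sacral DRG (33.3%, beside 6.73% of all tested genes). Snai1, the closest relative of Snai2, was higher by 0.92 (SE 0.24, limma adjusted p = 0.0281) and Twist1, a mesenchymal basic helix-loop-helix factor, by 1.09 (SE 0.27, limma adjusted p = 0.0221), each in 8 of 10 donors. Scrt2, a Snail superfamily member of neurons, fell by 0.57 on the log2 scale (SE 0.16, limma adjusted p = 0.0374), in 9 of 10 donors. Of 13 other BTB zinc finger genes, 10 were tested and Bcl6 alone passed and fell by 0.63 (SE 0.14, limma adjusted p = 0.0111), whereas Zbtb20 was at 0.43 (SE 0.13, limma adjusted p = 0.0511). The median difference over the tested list genes was 0.16 for the partners of Six4 and Eya, 0.15 for the Snail and mesenchymal factors and 0.05 for the BTB genes, beside -0.05 over all tested genes.

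Genes of the neuron subtypes in which Maf, Mafa and Shox2 are known were counted by list, beside the 6.73% of all tested genes past the threshold. Of 11 sensory subtype factors, 9 were tested and 2 passed (22.2%). Etv1, a factor of proprioceptors, fell by 0.86 in sacral DRG (SE 0.14, limma adjusted p = 0.000907), and Bcl11a, a zinc finger repressor, was higher by 0.47 (SE 0.12, limma adjusted p = 0.0276). Of 8 genes of low-threshold mechanoreceptors, all tested, 2 passed (25%). Nefh, the neurofilament heavy chain, fell by 0.86 (SE 0.18, limma adjusted p = 0.00871) in 10 of 10 donors, and Calb1, a calcium-binding protein, was higher by 0.59 (SE 0.17, limma adjusted p = 0.0449) in 10 of 10. The other 6 did not pass, with differences from -0.43 to 0.28. Of 54 transcription factors the study curated for sensory neurons, 47 were tested, 1 rose (Bcl11a) and 6 fell in sacral DRG, with Hoxb9, Hoxc8, Etv1 and Hoxb8 the 4 of smallest adjusted p. Bcl11a and Etv1 stand in both lists.

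The members did not vary as a group within the 4 groups. Deviations of the 20 libraries from their group means were correlated across members as a description; the points share donors, depth and the rRNA share of each library. Eya1 and Eya2 moved together most closely (Pearson's r = 0.83, n = 20), and Snai2 followed Eya1 (r = 0.55) and Maf (r = 0.54). Shox2 moved opposite to Eya2 (r = -0.73) and Eya1 (r = -0.72) and weakly with Six4 (r = 0.39). Zbtb16 stood apart from the other members, with r between -0.24 and 0.32.

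Library composition moved with the same members. Against the share of mitochondrial rRNA, r was 0.71 for Snai2, 0.69 for Eya1, 0.58 for Eya2, 0.37 for Maf and 0.15 for Zbtb16, and it was -0.54 for Six4 and -0.73 for Shox2 (n = 20). Against the mean of the 10 sensory neuron markers, r was -0.77 for Eya1, -0.73 for Eya2, -0.69 for Snai2 and -0.51 for Maf, but 0.75 for Shox2 and 0.50 for Six4. The 10 markers of Schwann cells and satellite glia gave r of the same signs. It was -0.81 for Eya1, -0.77 for Eya2, -0.48 for Snai2 and -0.45 for Maf, but 0.71 for Shox2 and 0.31 for Six4. The 12 fibroblast and meninges markers gave r of 0.66 for Eya2, 0.55 for Maf, 0.54 for Snai2 and 0.51 for Eya1, and 0.31 for Zbtb16. Snai2 also had r of 0.53 with the skeletal muscle markers and 0.53 with the cartilage markers. The part of the rRNA share and of these lists in the level differences was not tested.

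**Figure D4:**
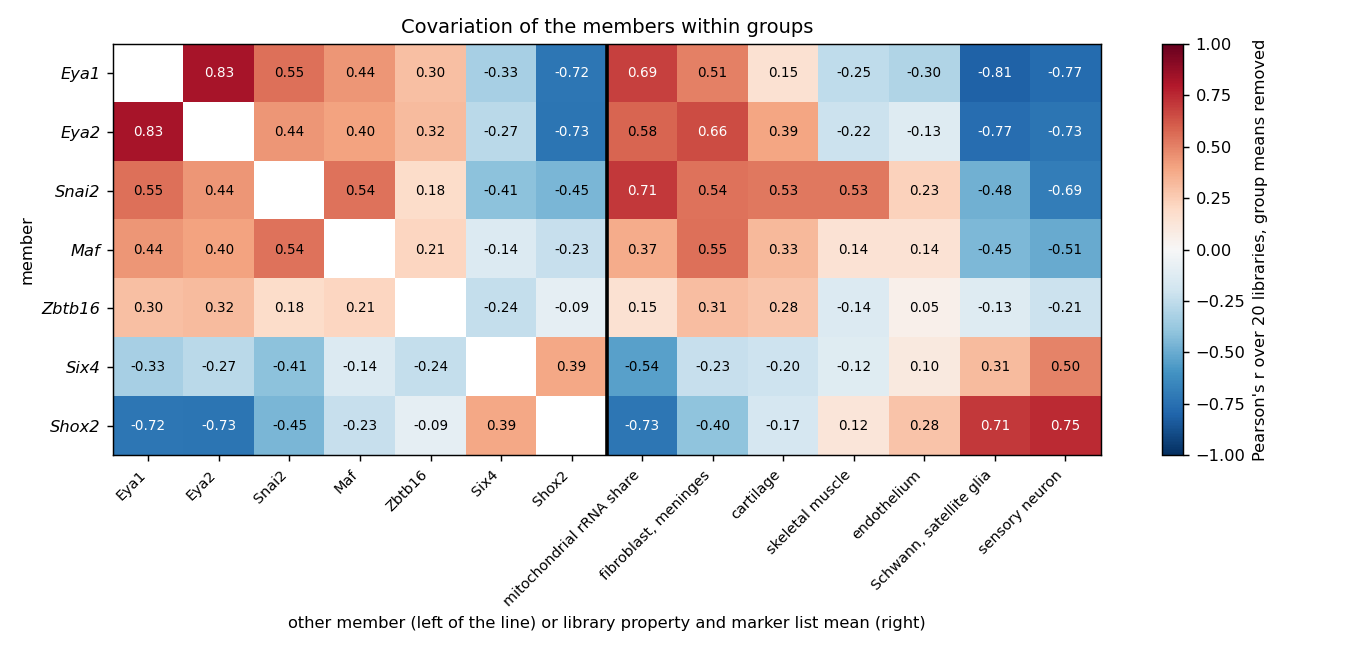
Pearson's r over the 20 libraries, after removal of the 4 group means, between the 7 tested members (left of the line) and between each member and the mitochondrial rRNA share or the mean of a marker list (right of the line). Red cells are positive and blue cells negative; Eya1, Eya2 and Snai2 share high positive values with the rRNA share and negative values with the sensory neuron markers, Shox2 shows the opposite signs and Zbtb16 stays between -0.24 and 0.32.

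The level comparison of the marker lists is given by counts, with no test of a list. Beside them, 6.73% of all tested genes passed in either direction and 2.7% were higher in sacral DRG. The summed level of the sensory neuron markers ran from 733 to 1360 RPKM in lumbar male, 677 to 1220 in sacral male, 792 to 1570 in lumbar female and 374 to 1350 in sacral female libraries, and none of these markers was at 0 reads in a library where reads were recovered. Of the 12 fibroblast and meninges markers, 6 rose in sacral DRG and none fell, with a median difference of 0.56, and they included Fbln1 (0.67), Ogn (0.50), Col6a3 (0.66) and Pdgfra (0.62). The mean over the list was higher in sacral DRG in 9 of 10 donors, by 0.43 ± 0.37 (SD, n = 10, log2), and by 0.53 without F8. Of the 10 markers of Schwann cells and satellite glia, 4 fell, among them Mbp, S100b and Fabp7, and of the 10 sensory neuron markers Snap25 fell, with list medians of -0.33 and -0.34. Of 9 cartilage markers 4 were tested and Col2a1 rose by 0.80 (SE 0.16, limma adjusted p = 0.00554), and of 6 endothelial markers 4 were tested and Cdh5 and Tek rose. None of 7 tested skeletal muscle markers of 12 passed, and Th was the only tested marker of 6 for sympathetic and parasympathetic neurons, at 0.30 (SE 0.21, limma adjusted p = 0.402). The summed levels of these lists ran from 15.0 to 25.4 RPKM in lumbar and 21.6 to 40.0 in sacral libraries for cartilage, and from 23.1 to 48.2 and 33.0 to 60.6 for endothelium. Their part in the higher sacral values of Zbtb16, Eya2, Snai2, Eya1 and Maf was not tested.

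The genes most like each member within the groups were found among the tested genes by the highest r over the same 20 deviations, without genes that overlap the member. Eya1 was followed by Slc6a20a (r = 0.96), Gpbp1l1 (0.95) and Gm17120 (0.94), and Eya2 by Lyve1 (0.94), Rassf2 (0.93) and Sidt1 (0.92). Snai2 was followed by Apex2 (0.90), C1qtnf3 (0.89) and 1810074P20Rik (0.89), and Shox2 by Qrich1 (0.91), ENSMUSG00000093745 (0.91) and Elmo1 (0.89). These 4 members each had between 90 and 152 genes with r above 0.8. Maf had 8 such genes, led by Mllt4 (0.86), Sec24a (0.84) and Fam116a (0.84), and Six4 had 5, led by Pip4k2a (0.84), Stc1 (0.82) and Zfp275 (0.82). For Zbtb16 no gene reached 0.8, and the nearest were 2700062C07Rik (0.75), 4922501C03Rik (0.73) and Prdm11 (0.71). The nearest genes of Eya1 correlated with the rRNA share at 0.62 to 0.67 and those of Shox2 at -0.83 to -0.73. For Eya2 they were at 0.53 to 0.63, for Snai2 at 0.58 to 0.78 and for Six4 at -0.75 to -0.59. Those of Maf were at 0.38 to 0.46 and those of Zbtb16 at 0.11 to 0.27. The part of the rRNA share in the likeness was not tested.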

How the data were processed

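The authors amplified total RNA of whole DRG, sequenced it on a HiSeq2500, aligned reads to mm9 with Subread, counted unique reads per Ensembl gene with featureCounts, scaled them by TMM (edgeR 3.12.1) and voom (limma 3.26.9), and deposited log2 RPKM values. Strand use in counting is not given in the sources used here. Groups and donors came from the labels. The deposited values were whole multiples of 1 read for 98.27% of values (within 0.05 of a read), with GENCODE M1 gene lengths, which gave reads for 28324 genes but not for Shox2 or Six4. A blank was set to 0.5 reads. Libraries were amplified and carry no molecular identifiers, so limits cover counting error only.

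Differences were fitted with limma 3.58.1 (R 4.3.3) on the log2 values of 20 libraries: 4 group means, donor as a block (lumbar and sacral ganglia of 1 embryo, consensus correlation 0.34), eBayes with trend, Benjamini-Hochberg adjustment over the 14529 genes with a mean of at least 1 RPKM in at least 1 group, and a threshold of 0.05. The fit was tested on simulated data. Mafa, below the filter, had exact permutation tests. The members and lists were chosen with earlier results of these data known. List genes were named where they passed the level test (at most 4 per list) or were close relatives of a member, and for each member the 3 genes most correlated with it were named. Zbtb18 and Cnmd were matched through older symbols. Alternatives changed the block, filter, blanks, scale, centring, rRNA covariate, weights, trend and donors. The embryos are separate animals of 1 strain. Results for some list genes are not reported here.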

Additional observations from a re-analysis of the deposited data

Results flagged for a closer look

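Within each of the 28 member and group combinations without a blank, no library stood apart from the other 4 by Dixon's criterion (0.71 for 5 samples), which flags about 1 in 20 groups by chance; the 4 groups of Mafa, which hold blanks, were not examined.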

How the results depend on the processing

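The level comparison called 4 members, and the count was 1 without the replicate block, 2 with donor as a fixed effect, 1 with no filter on low values, and 1 to 5 without single donors; it was between 4 and 6 under the other alternatives, including 5 without donors M5 and F8 together, a setting chosen after the data were seen. The paired design came from the labels, and the block changed no other member call, the counts for sex and interaction being 0 with and without it. Which members passed also changed. Snai2 and Maf were lost with donor as a fixed effect, and Maf was lost and Eya1 gained with the rRNA covariate. Zbtb16 left the fit and Eya1 was gained with the filter at 2 RPKM. Eya1 also passed without M7, without F8 and with sample weights, and the weights also added Shox2. Without the replicate block and with no filter, Zbtb16 alone was called. Of the 10 fits without a single donor, Zbtb16 was called in 10, Eya2 in 5, and Snai2 and Maf in 1 each. The rule used this contrast, so nothing about stability is read from these calls. No member was called for sex or interaction under any alternative. Over all genes, 978 were called for level, 154 without the replicate block, 507 with no filter, 2998 with sample weights and 406 (without F10) to 1608 (without F8) without single donors. For sex in lumbar DRG 48 were called, 73 with centring, 228 with the rRNA covariate, 197 with weights and 14 to 81 without single donors. In sacral DRG 147 were called, 94 with no filter, 275 with centring, 702 with the rRNA covariate, 751 with weights, 254 without M5 and F8 and 55 to 444 without single donors. The Six4 level difference, near 0, was at -0.0022 without F8, -0.016 without F10 and -0.036 without M5 and F8. Further estimates, none past the threshold, turned direction, and the cause was not tested. For sex in lumbar DRG the values without single donors ran from -0.17 to 0.071 for Zbtb16 (above 0 without M8, F3 or F10), -0.10 to 0.30 for Eya2 (below 0 without F7) and -0.13 to 0.23 for Shox2 (below 0 without M1 or M5), and Shox2 was at -0.057 without M5 and F8; with sample weights Eya2 was at -0.23 and Eya1 at -0.016. For the interaction Eya1 ran from -0.085 to 0.53 (below 0 without M7 or F10). The Eya2 interaction kept its direction and was at 1.05 without M5 and F8. Mafa, when fitted with no filter, had limma adjusted p-values of 0.989, 0.547 and 0.988 for the lumbar, sacral and interaction comparisons. There were 5 donors of each sex, and Mafa had at most 9 reads in a library. Why no member passed for sex or interaction was not tested.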
